A study of Mus musculus with 8 samples.

Results

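Peaks of the input chromatin of dTAG-treated mouse embryonic stem cells (mESCs) were examined, that is, places where sonicated chromatin that had not been pulled down with any antibody gave locally more fragments than its surroundings. All 2050 peaks of the list were taken, of 70200 peaks in the 4 lists used here. The series asks where the histone methyltransferase EHMT2 sits in the genome. It uses the EHMT2-dTAG-mcherry mESC line on a BL6/129 background, in which EHMT2 carries a degron and an HA tag, so that the compound dTAG triggers its degradation. Cells received DMSO or dTAG for 24 h. HA ChIP was made with the antibody C29F4 (DMSO, replicates merged before peaks were called, 11010 peaks) and with ab9110 (1 DMSO library with 40816 peaks and 1 dTAG library with 16324). The input list comes from 1 dTAG library sequenced beside the ab9110 ChIP, so all groups share the tagged EHMT2 allele, and the list describes that library. Input peaks of DMSO-treated cells were not analysed here.

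Input chromatin is the reference against which a ChIP is read. Sonication shears open chromatin more readily than compact chromatin, which raises input at active promoters, and sequences present in many copies collect fragments from all of their copies when the assembly holds fewer copies than the cells or when a read with many possible locations is placed at 1 of them. Mitochondrial DNA, of which a cell holds many more copies than of its nuclear genome, is also sequenced. An input peak is made without the antibody and so is not a measurement of EHMT2 binding.

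The sequences that came back most often among the input peaks are shown first, because the results turn on them. For each 36-base word, all input peaks that contain it on either strand were counted, the word in the most peaks was taken, and the search was repeated among the remaining peaks. The 6 leading words follow in capitals within 12 bases of context on each side, on the plus strand of GRCm38 (mm10), from the peaks at chr5:13871335-13871394, chr13:28475908-28475967, chrX:128363562-128363621, chr14:108953833-108953892, chr16:47822288-47822347 and chr11:98653153-98653212.
Word 1: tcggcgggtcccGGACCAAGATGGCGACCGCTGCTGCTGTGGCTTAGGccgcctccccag
Word 2: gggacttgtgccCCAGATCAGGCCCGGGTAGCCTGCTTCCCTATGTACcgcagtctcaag
Word 3: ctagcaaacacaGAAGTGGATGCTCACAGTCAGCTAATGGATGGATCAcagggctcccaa
Word 4: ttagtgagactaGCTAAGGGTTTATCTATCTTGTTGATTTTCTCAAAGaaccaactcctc
Word 5: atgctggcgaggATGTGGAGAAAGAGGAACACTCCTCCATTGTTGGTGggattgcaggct
Word 6: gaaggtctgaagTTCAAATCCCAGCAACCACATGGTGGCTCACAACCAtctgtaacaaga

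Word 1 was held by 45 input peaks on 19 chromosomes, and 44 of the 45 summits lay in a long repeat, defined as a soft-masked stretch of at least 5 kb without interruption. All 45 overlapped a C29F4 peak, all 45 overlapped an ab9110 DMSO peak, and 18 overlapped an ab9110 dTAG peak. These peaks made up 41.7% of the 108 input peaks that met the C29F4 list. Their median fold over the local background was 4.82 and their highest 6.38. The word occurs at 5599 places in the assembly, so 0.804% of its places lay in an input peak. It was also frequent in the ChIP lists themselves, where it was contained in 14.6% of C29F4 peaks, in 4.02% of the ab9110 peaks from DMSO and in 6.04% of those from dTAG, against 2.2% of input peaks. A wider peak holds a whole word more readily. Median widths were 507, 429 and 562 bp in these 3 lists and 207 bp in input. The part of width in these shares was not tested.

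Word 2, also mostly in long repeats (27 of 29 peaks), overlapped C29F4 in 8 peaks (27.6%), ab9110 DMSO in 18 (62.1%) and ab9110 dTAG in 1 (3.45%). None of the 27 input peaks with word 3, of the 24 with word 4 or of the 22 with word 5 overlapped any of the 3 ChIP lists. Of all input peaks, 84.6% overlapped none. These 3 words occur at 15045, 13335 and 20743 places in the assembly, more than word 1, of which 0.179%, 0.18% and 0.106% lay in an input peak. Word 6 lay outside long repeats in all 20 of its peaks, and 4 of them (20.0%) overlapped an ab9110 DMSO peak only. The repeated sequences of the input list thus differed in whether a ChIP peak was present at the same place. The words were picked by their counts in these peaks, so the overlaps are a description with no test.

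**Figure D1:**
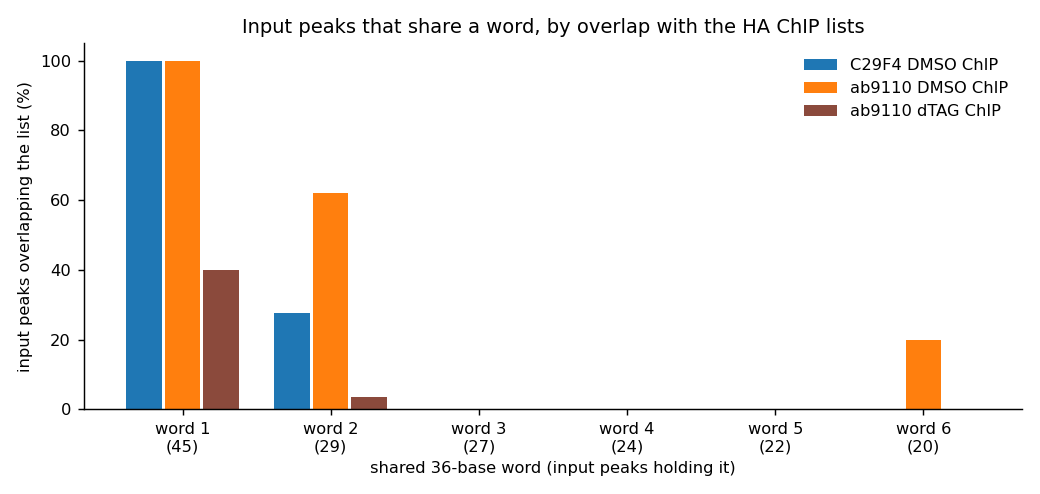
Share of input peaks overlapping each HA ChIP list (vertical axis, percent) for the input peaks that hold each of 6 shared 36-base words (horizontal axis, number of peaks in brackets). Word 1 reached 100% in both DMSO lists, word 2 reached 27.6% and 62.1%, and words 3, 4 and 5 stayed at 0 in all 3 lists.

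Of the 2046 nuclear input peaks, 938 (45.8%) shared at least 1 word with another input peak, in 45 families. The largest family linked 682 peaks on 21 chromosomes, with a median of 2638 places per word and 59.5% of summits in long repeats. No single word was held by more than 45 of these peaks, so the family does not rest on a common word. In this family 12.5% of peaks overlapped C29F4 and 3.67% overlapped ab9110 dTAG. The next families were far smaller, with 76, 28 and 25 peaks, and their summits all lay outside long repeats. A further 1108 peaks shared no word with any other.

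A peak was called multicopy when its median 36-base word occurred at 2 or more places in the assembly. This held for 998 of the 2050 input peaks (48.7%, exact binomial 95% interval 46.5 to 50.9), against 16.2% of 52951 windows of 207 bases laid at 1 per 50 kb over the genome. Intervals here and below cover counting error only. The corresponding shares were 32.8% in the C29F4 list, 20.8% in ab9110 DMSO and 14.2% in ab9110 dTAG, the last below the genome windows. With words of 100 bases the share was 28.3% of input peaks. The excess lay at high copy numbers. Words at 1000 or more places were the median of 555 nuclear input peaks (27.1%) but of 3.28% of genome windows, whereas those at 2 to 9 places made up 7.14% of input peaks and 4.97% of windows. Long repeats held 431 input summits (21.0%, 19.3 to 22.9), against 4.76% of assembled bases. This was not particular to input, as they held 25.1% of C29F4, 10.2% of ab9110 DMSO and 8.15% of ab9110 dTAG summits. Soft-masking, the marking of repeats in lower case, covered the whole of 807 peaks (39.4%) and none of the bases of 330 (16.1%). It covered 50.5% of all input peak bases, and 51.3% of those of nuclear peaks. The share of bases was 57.1% in C29F4, 42.0% in ab9110 DMSO, 26.1% in ab9110 dTAG and 36.4% in the assembled genome.

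To follow the kinds of sequence separately, each peak was put into the first class that applied. There were 4 mitochondrial peaks, 1 nuclear peak resembling mitochondrial sequence, 59 tandem repeats, 944 other multicopy peaks, 255 single-copy peaks within 1 kb of a transcription start and 787 single-copy peaks elsewhere. Multicopy peaks had a median GC content of 44.8%, and single-copy peaks near starts 59.8%, with a median width of 315 bp against 196 bp. Median folds were nearly alike, at 4.61 for multicopy, 4.47 near starts and 4.55 elsewhere, whereas the highest were 29.9, 9.19 and 8.87. A peak of 8 fragments over the lowest background of the list, the fewest listed, had a fold of 4.55. These medians thus lie close to the q-value limit, and their likeness does not show equal enrichment of the classes. The strongest evidence was concentrated in repeated sequence. Of the 1486 peaks with a q-value of 0.05 to 0.01, 38.0% were multicopy and 1.62% tandem repeats. Among the 190 peaks with a q-value below 0.001, 78.4% (71.9 to 84.0) were multicopy, 11.6% tandem repeats, 3.16% single-copy near starts and 5.26% single-copy elsewhere.

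**Figure D2:**
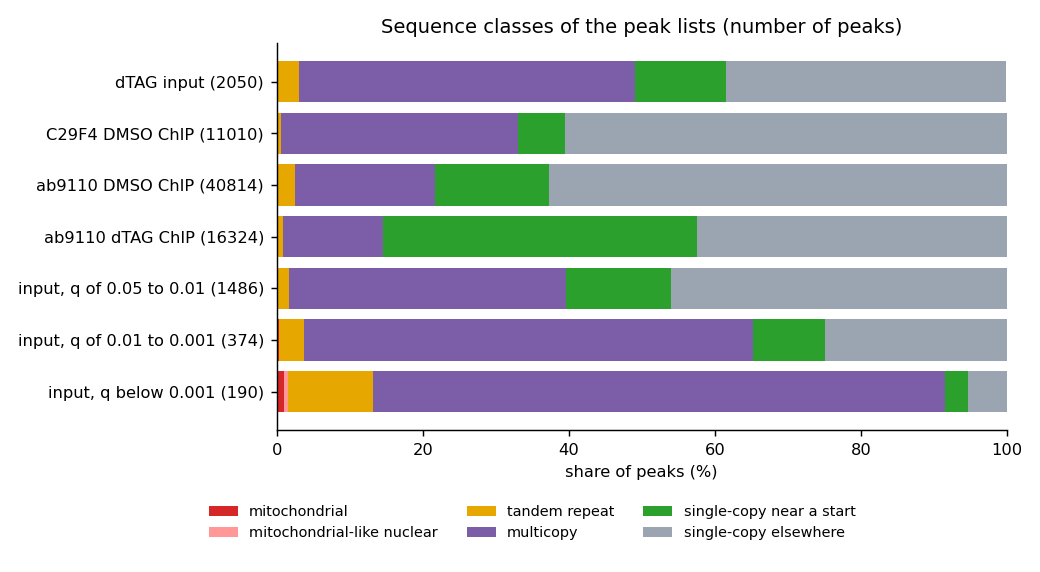
Share of peaks (horizontal axis, percent) in 6 sequence classes for the input list, the 3 HA ChIP lists and the input list split by q-value (number of peaks in brackets). The multicopy share of input rose from 38.0% to 78.4% from the weakest to the strongest q-values, and single-copy peaks near starts made up 43.0% of the ab9110 dTAG list against 12.4% of input.

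**Figure D3:**
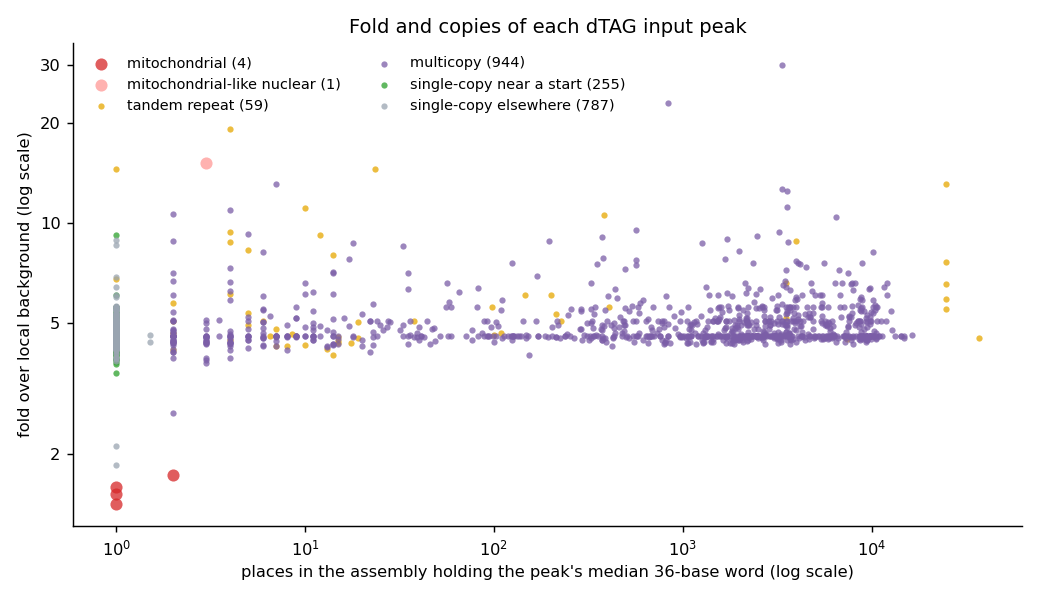
Fold over local background (vertical axis, log scale) against the number of places that hold the peak's median 36-base word (horizontal axis, log scale), 1 point per input peak, coloured by class. Most peaks lie near the median fold of 4.55, close to the q-value limit, at all copy numbers. The points of highest fold, up to 29.9, are multicopy or tandem repeat peaks apart from the mitochondrial-like nuclear peak at 15.19. The mitochondrial peaks lie lowest, at 1.42 to 1.74.

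Most members were weak. The list's highest peak number is 774156, so that the q-value filter kept a small part of the regions first numbered. The smallest peaks held 8 fragments at the summit and the median peak 9. The lowest background, 0.978 fragments, which MACS2 sets at the mean coverage of the library, was the background of 605 peaks (29.5%). A single value of −log10 q, 1.32, was shared by 776 peaks (37.9%), and 34 peaks reached 10 or more. In the 1401 peaks whose background lay more than 0.01 above the lowest value and below 12 fragments, the background was a whole multiple of 0.0118 within 0.0002, a tolerance that alone would match 3.39% of values. The best single step matched 50.6% of C29F4 backgrounds, and for ab9110 69.3% in DMSO and 51.3% in dTAG. A single step thus matched all of these input backgrounds but not all of those of any ChIP list. Whether a control library entered the ChIP peak calls is not given in the sources used here, so the ChIP folds and backgrounds set beside those of input may be relative to control chromatin or to the surroundings of the peak in the ChIP itself.

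The peak with the highest −log10 q (73.7) lay at chrX:128363477-128363800, between genes, with 60 fragments at the summit over a background of 1.04 and a fold of 29.93. It was fully soft-masked, its median word occurs at 3335 places, and it overlapped no ChIP peak. The part around its summit, chrX:128363628-128363778 on the plus strand, is shown with the bases of words found in 10 or more input peaks in capitals.
Strongest input peak: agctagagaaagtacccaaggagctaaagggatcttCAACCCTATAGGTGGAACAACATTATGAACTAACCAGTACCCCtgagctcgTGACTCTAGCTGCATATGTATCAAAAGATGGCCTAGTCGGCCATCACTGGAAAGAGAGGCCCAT
The capitals cover 107 of its 151 bases, and the same peak carries word 3.

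None of the 10 strongest nuclear peaks overlapped any ChIP list, a lack shared by 84.6% of all input peaks. The second was a fully masked intergenic multicopy peak (833 places) with a fold of 22.99, and the third was a tandem repeat with a period of 56 bases in an intron of Ppp2r2b, a regulatory subunit gene of protein phosphatase 2A, with a fold of 19.21. Peaks at chr6:145932843-145933091, in an intron of Sspn, the gene of the dystrophin-associated protein sarcospan, and at chr1:147987937-147988555, fully masked and intergenic, had folds of 13.13 and 12.49. The first held no masked base although its median word occurs at 7 places. The strongest peaks in long repeats lay at chrX:76551747-76551926 (fold 12.64), chr1:47593583-47593774 (11.19) and chr1:94479757-94479945 (10.45), all between genes.

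Tandem repeats, in which a short unit is repeated head to tail, covered at least 50% of 59 input peaks (2.88%, 2.2 to 3.7), compared with 0.572% of C29F4 peaks, and with 2.56% (DMSO) and 0.907% (dTAG) of ab9110 peaks. The unit most often found, AGAGGC on one strand or the other, formed 10 of the 59 peaks, on 6 chromosomes. The other units of up to 12 bases each formed at most 3 peaks. Folds of the 10 ranged from 4.4 to 14.5 with a median of 7.1, and none of the 10 overlapped any ChIP list. The pair of highest fold lay between genes at chr4:60081726-60081944 and in an intron of Nkap at chrX:37130488-37130643. Their summit regions, chr4:60081762-60081912 and chrX:37130492-37130642, are given on the plus strand with exact copies of the unit, read on either strand, in capitals.
Chromosome 4 tandem peak: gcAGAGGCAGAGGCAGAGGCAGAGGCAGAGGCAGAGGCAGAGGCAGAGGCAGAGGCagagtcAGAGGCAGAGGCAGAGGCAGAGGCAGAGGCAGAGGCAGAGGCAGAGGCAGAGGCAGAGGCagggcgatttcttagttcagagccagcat
Nkap intron tandem peak: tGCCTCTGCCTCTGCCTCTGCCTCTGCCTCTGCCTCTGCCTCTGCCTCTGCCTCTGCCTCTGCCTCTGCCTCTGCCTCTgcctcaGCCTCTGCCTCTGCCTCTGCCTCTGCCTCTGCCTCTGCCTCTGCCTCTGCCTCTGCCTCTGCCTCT
The third strongest tandem peak, at chr9:88096330-88096598 with a period of 16 bases and a fold of 14.57, held no soft-masked base, and its words occur at a single place.

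Mitochondrial DNA, which encodes subunits of the respiratory chain and the RNAs needed to make them, gave 4 input peaks, at chrM:58-3679, chrM:3800-4461, chrM:11622-15422 and chrM:15631-16223. Their summits held 195, 206, 211 and 166 fragments over backgrounds of 128, 145, 132 and 95.1, so that the folds were only 1.52, 1.42, 1.59 and 1.74, the lowest of the list. The backgrounds were 97.2 to 148 times the mean coverage of the library. The first 3 summits lay in mt-Nd1, mt-Nd2 and mt-Nd5, genes of complex I subunits, and the last between genes. The ab9110 lists held 1 mitochondrial peak each, at chrM:15330-16177 in DMSO and chrM:14810-16226 in dTAG, both overlapping the last pair of input peaks, with backgrounds 98.4 and 136 times the mean coverage of their libraries. The C29F4 list held none among 11010 peaks.

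A single nuclear input peak shared words with the mitochondrial sequence. It lay between genes at chr5:60042897-60043088, had 33 fragments over a background of 1.24 and a fold of 15.19, ranked 6 of 2050 and overlapped no ChIP peak. Of its 192 bases, 141 (73.4%) lie in words of the mitochondrial sequence between positions 5041 and 5181, which hold the tRNA genes mt-Ta and mt-Tn. They are in capitals below, on the plus strand.
Mitochondrial-like nuclear peak: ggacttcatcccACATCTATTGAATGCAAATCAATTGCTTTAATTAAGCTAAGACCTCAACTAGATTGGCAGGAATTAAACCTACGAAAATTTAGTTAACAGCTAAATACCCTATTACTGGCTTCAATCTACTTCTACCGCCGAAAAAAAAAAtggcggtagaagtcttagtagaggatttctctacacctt
No peak of the 3 ChIP lists shared such a word outside the mitochondrial sequence.

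Input peaks were spread over all autosomes, with 0.812 peaks per Mb of assembled sequence. Autosomal densities ran from 0.578 per Mb on chromosome 2 (0.471 to 0.7, exact Poisson 95% interval) to 1.12 on chromosome 8 (0.945 to 1.32), followed by 1.04 on chromosome 13 (0.865 to 1.24). The intervals of most neighbours in this order overlapped. Chromosome Y held 1 peak, or 0.0113 per Mb (0.000287 to 0.0632), far below the autosomes.

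Chromosome X held 99 peaks, or 0.746 times the autosomal density (0.603 to 0.913), and they differed in kind from those of the autosomes. Among peaks with a q-value below 0.01 the density ratio was 1.0 (0.696 to 1.41), and among those below 0.001 it was 0.651 (0.277 to 1.31). Of the 99, 94 were multicopy (94.9%, 88.6 to 98.3), against 849 of 1946 autosomal peaks (43.6%, 41.4 to 45.9), which the intervals separate. Multicopy peaks were denser on X than on the autosomes, at 0.575 against 0.354 per Mb. Single-copy peaks numbered 2 on X, both near starts, which is 0.0122 per Mb, against 1040 or 0.434 per Mb on the autosomes. The X was also poor in single-copy ChIP peaks, but less so, with 3.46 against 13.1 per Mb in ab9110 DMSO and 0.722 against 3.03 per Mb in C29F4. The median background of X input peaks equalled the lowest of the list, 0.978, and 80.8% of them sat at it. Peaks over this lowest background were listed from 8 fragments upwards, and more fragments were needed where the background was higher. The coverage of X was not measured apart from peaks, so the part of lower coverage of X in this result was not tested.

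Chromosome 8 was 1.41 times (1.18 to 1.68) as dense in input peaks as the other autosomes. The excess was in single-copy peaks, with 0.215 against 0.0995 per Mb near starts and 0.502 against 0.319 per Mb elsewhere, while multicopy peaks had nearly the same density, 0.358 against 0.354 per Mb. The median background of its input peaks was 1.53 fragments, and those of the other autosomes ranged from 0.997 on chromosome 18 to 1.26 on chromosome 17, with 1.12 over all of them. The ratio of the chromosome 8 median to that of the other autosomes was 1.37 in input, 1.42 in ab9110 DMSO and 1.49 in ab9110 dTAG, where the source of the ab9110 background (ChIP or control) is not known. In the C29F4 list the median background was 6.95 on chromosome 8 as on the other autosomes, although C29F4 peaks were 1.77 times as dense on chromosome 8 (1.65 to 1.89). On X the C29F4 median was also 6.95. The X medians of input, ab9110 DMSO and ab9110 dTAG were 0.978, 2.36 and 1.48, below 1.12, 3.1 and 2.22 on the autosomes other than 8. On chromosomes 8 and X the C29F4 median thus did not follow those lists. Among the autosomes other than 8 it ranged from 6.25, as on chromosome 18, to 7.64, as on chromosome 11. Why it was equal on chromosome 8 was not tested. Without the peaks of very high background described below, the chromosome 8 median in input was 1.52 over 138 peaks. Whether the cells of these libraries carried extra copies of chromosome 8 was not tested.

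**Figure D4:**
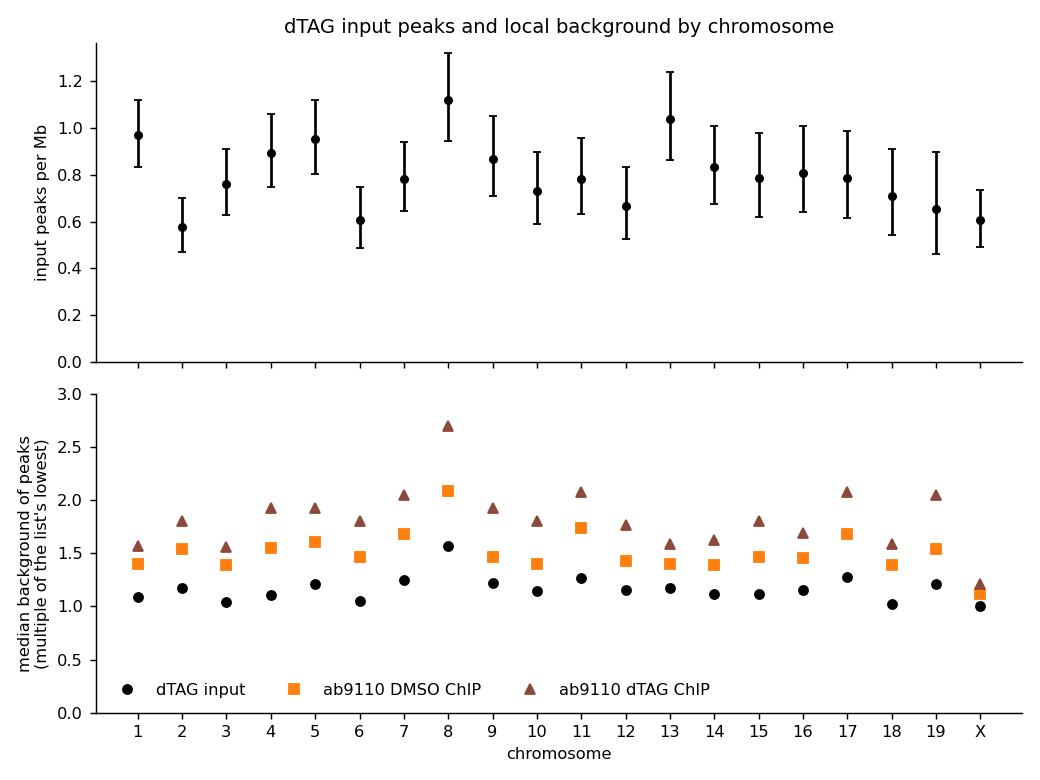
Upper panel, input peaks per Mb of assembled sequence by chromosome, with exact Poisson 95% intervals as bars. Lower panel, median background of the peaks on each chromosome as a multiple of the lowest background of its list, for input and both ab9110 lists. Chromosome 8 is highest in both panels and in all 3 libraries, and X is lowest in the lower panel; Y and the mitochondrial sequence are not drawn.

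In 17 nuclear input peaks the background was 3 or more times the mean coverage, which marks broad stretches of raised input. They fell into few places. In the first part of Def8 on chromosome 8, peaks at chr8:123425858-123428732, chr8:123431546-123433144 and chr8:123433247-123434462 held 93, 89 and 95 fragments over backgrounds of 43.3, 47.5 and 34.9. This stretch stood at 35.6 to 48.5 times the mean coverage although the median words of the 3 peaks occur at 1, 1 and 2 places. Both ab9110 lists, with the same limit on their backgrounds, had a pair of peaks at the edges of the same stretch, with backgrounds 80.7 and 68.9 times the mean in DMSO and 74.3 and 69.1 times the mean in dTAG. The C29F4 list had no peak there.

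At Pisd, whose product makes phosphatidylethanolamine in mitochondria, 6 input peaks lay between chr5:32733964 and chr5:32739397 over backgrounds of 2.94 to 3.85 fragments. The strongest, at chr5:32737986-32738182, held 47 fragments with a fold of 10.63, and its neighbour at chr5:32733964-32734361 held 42 with a fold of 8.87. The first covers an exon and is printed on the plus strand, with the 161 bases of Pisd exons that begin and end within the peak in capitals.
Pisd exon peak: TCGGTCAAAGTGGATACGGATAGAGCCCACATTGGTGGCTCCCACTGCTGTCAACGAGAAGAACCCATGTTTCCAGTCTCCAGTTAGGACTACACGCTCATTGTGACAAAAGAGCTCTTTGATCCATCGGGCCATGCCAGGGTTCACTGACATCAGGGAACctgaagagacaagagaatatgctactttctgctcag
No ChIP peak lay in these 6. A further group, at Gm36079 and Gm21188 on chromosome 13, had 7 input peaks between chr13:120024956 and chr13:120036501, with backgrounds of 2.32 to 4.43 and a highest fold of 8.72, and again no ChIP peak lay at Gm36079.

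Input peaks rarely lay close together. Only 76 of 2050 (3.71%) had another input peak within 10 kb, and the nuclear ones formed 28 clusters, of which 6 held 3 or more peaks. The 2737 windows of 1 Mb averaged 0.748 peaks. The fullest, chr13:66000001-67000000, held 17, of which 16 were multicopy with a median of 3 places per word, and the window before it held 7. This stretch holds Zfp640 and vomeronasal receptor pseudogenes, and its copies are few, unlike those of the interspersed repeats. Apart from Gm20388, an annotated gene of 4435 kb with 11 peaks that spans Def8, the genes with 4 or more input peaks in the body were Pisd (5), Def8 (4), Gm26754 (4), the long neuronal genes Sntg1 of 938 kb (4) and Nrg3 of 1104 kb (4).

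With respect to genes, 297 input summits (14.5%, 13.0 to 16.1) lay within 1 kb of an annotated transcription start, against 6.05% of assembled bases. The shares in C29F4, ab9110 DMSO and ab9110 dTAG were 7.19%, 16.7% and 43.9%. The nearest start belonged to a protein-coding gene in 240 of the 297, and to 237 different genes, so the peaks near starts were spread thinly over many promoters. Exons held 8.75% of nuclear input summits (7.56 to 10.1) against 4.84% of bases. The exon shares of the ChIP lists, in the same order, were 3.85%, 8.98% and 24.7%. Introns held 37.8% of nuclear input summits against 41.2% of bases, and intergenic sequence 53.4% (51.2 to 55.6) against 54.0%. Of the multicopy peaks 70.4% were intergenic and 2.54% exonic, and of the single-copy peaks near starts 21.2% and 41.6%. The strongest peak at a protein-coding start with single-copy sequence lay at chr11:57176080-57176688, 392 bp from a start of the AMPA receptor subunit gene Gria1, with a fold of 9.19. The other leading peaks near such starts were multicopy, at Gm21188 (8.72), Adgre4 (7.47), Gm13283 (6.58) and Gm36079 (4.65).

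Of 55413 annotated genes, 1.97% had an input summit in the body or within 1 kb of the start, and of 21938 protein-coding genes 3.94%. Of 17 genes matched by symbol and linked to methylated histone H3 lysine 9, partner proteins included, 2 had one (11.8%, 1.46 to 36.4, containing both shares). They were Zfp462, which encodes an interaction partner of EHMT1 and EHMT2, with an intronic peak at chr4:55015749-55015884 of 10 fragments and a fold of 4.42, and Setdb2, which encodes a histone methyltransferase, with a peak of 8 fragments and a fold of 4.55 at chr14:59441091-59441295, 295 bp from the start. Neither overlapped a ChIP peak. None of 16 pluripotency genes (exact upper limit 20.6%), 80 genes of the 2-cell-like state such as Zscan4 and Obox (4.51%), 91 ribosomal protein genes (3.97%) or 354 annotated rRNA genes (1.04%) had an input summit. With their flanks these lists span only 0.39, 0.595, 0.557 and 0.729 Mb, and all genes had 0.798 peaks per Mb. An absence from such short spans does not show a depletion. Clustered histone genes held 2 peaks, at 3 of 67 genes (4.48%, 0.933 to 12.5), near the share of protein-coding genes. The first, at chr13:21754321-21754872, lay near Hist1h2ak and Hist1h2bn, had a fold of 4.44 and overlapped both ab9110 lists, and the other, at Hist1h2be, overlapped none.

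Receptor genes of the sense of smell lie in large clusters. Olfactory receptors had a summit at 3 of 1407 genes (0.213%, 0.044 to 0.622) and vomeronasal receptors at 4 of 565 (0.708%, 0.193 to 1.8). Per Mb of their bodies and flanks this is 0.373 and 0.521 peaks, against 0.798 over all genes. Each density rests on 4 peaks and was given no interval, so a lower density than over all genes was not established. Among the vomeronasal peaks was a tandem repeat at the pseudogene Vmn1r-ps47 at chr7:10285004-10285283, with a fold of 8.83 and the unit shown above for chromosome 4. Zinc finger protein genes had 17 peaks, or 1.24 per Mb, at 15 of 413 genes (3.63%, 2.05 to 5.92), near the 3.94% of protein-coding genes. Of these peaks 3 lay in Zfp804b, a gene of 576 kb. Clustered protocadherin genes shared 1 peak, or 1.75 per Mb, which lay in the common span of 22 of 58 genes. Among small RNA genes, 2 of 1383 snRNA (0.145%), 3 of 1507 snoRNA (0.199%), 5 of 2202 miRNA (0.227%) and none of 562 miscellaneous RNA genes had a summit, against 1.97% of all genes. These genes are short. Per Mb the first 3 types had 0.688, 0.678 and 1.22 peaks, against 0.798 over all genes. These densities rest on 2, 2 and 5 peaks, so no difference from all genes was established.

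Overlap with the HA ChIP was limited. Of the input peaks, 259 (12.6%, 11.2 to 14.2) overlapped an ab9110 DMSO peak, 108 (5.27%, 4.34 to 6.33) a C29F4 peak and 106 (5.17%, 4.25 to 6.22) an ab9110 dTAG peak, while 1734 (84.6%) overlapped none of the 3 lists. All 3 lists met at 25 input peaks, both DMSO lists without dTAG at 63, and both ab9110 lists without C29F4 at 44. The nuclear summits lay inside peaks more often than the bases these peaks cover would give, at 4.5% against 0.294% of bases for C29F4, 10.6% against 0.876% for ab9110 DMSO and 2.69% against 0.407% for ab9110 dTAG. The lists differ in size and peak width, so these shares do not rank the antibodies. Limited to the 2050 strongest peaks of each list, the overlaps were 2.98% for C29F4, 3.12% for ab9110 DMSO and 1.41% for ab9110 dTAG. The share overlapping no list hardly moved with the q-value of the input peak, from 85.3% of the weakest to 83.7% of the strongest.

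The kind of input peak that was met differed between the ChIP lists. Of the C29F4 overlaps, 81.5% were multicopy and 3.7% single-copy near a start. Of the ab9110 dTAG overlaps, 29.2% were multicopy and 61.3% single-copy near a start, and ab9110 DMSO lay between, with 52.9% and 27.0%. Read from the side of the input, multicopy peaks overlapped C29F4 in 9.32% (7.54 to 11.4), ab9110 DMSO in 14.5% (12.3 to 16.9) and ab9110 dTAG in 3.28% (2.24 to 4.63). Single-copy peaks near starts overlapped them in 1.57% (0.429 to 3.97), 27.5% (22.1 to 33.4) and 25.5% (20.3 to 31.3). Single-copy peaks elsewhere were seldom met, in 1.78%, 4.96% and 0.635%. After dTAG, when tagged EHMT2 is to be degraded, 2 of the 787 summits of this last class (0.254%, 0.0308 to 0.915) lay inside an ab9110 peak, an interval that contains the 0.407% of bases covered.

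**Figure D5:**
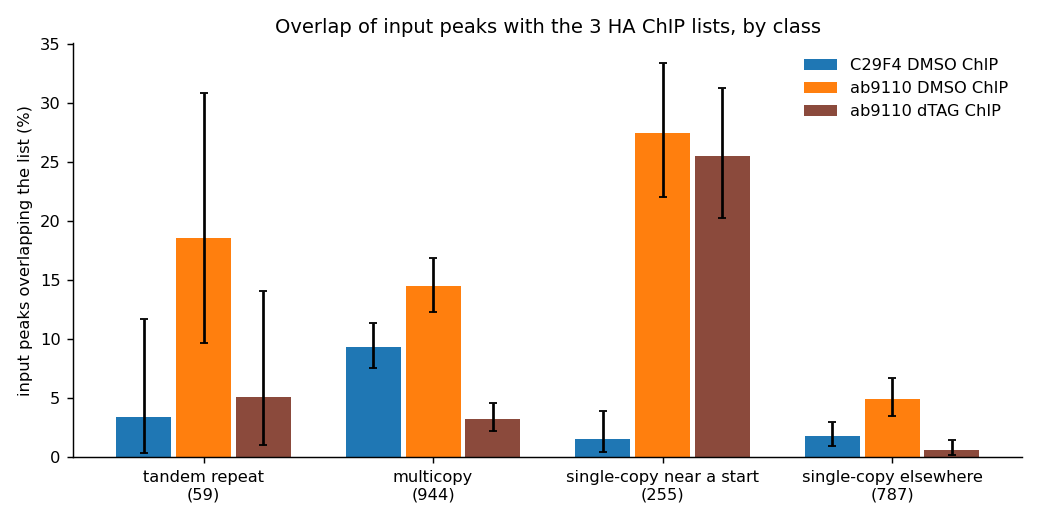
Share of input peaks overlapping each HA ChIP list (vertical axis, percent) by sequence class (horizontal axis, number of input peaks in brackets), with exact binomial 95% intervals. C29F4 is highest among multicopy peaks, at 9.32%, and the ab9110 dTAG list reaches 25.5% of single-copy peaks near starts against 3.28% of multicopy peaks.

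Where an ab9110 peak and a nuclear input peak overlapped, their heights were compared as multiples of each library's mean coverage. The ab9110 dTAG peak was higher than the input peak at 101 of 104, with a median ratio of 1.46, and at all 65 single-copy peaks near starts, with a median ratio of 1.52. The ab9110 DMSO peak was higher at 145 of 257, with a median ratio of 1.07, namely 1.39 at multicopy peaks and 0.975 at single-copy peaks near starts. Heights of peaks in a list had to pass its threshold, so these ratios describe listed peaks only. The C29F4 list had no background repeated often enough to serve as its mean coverage and was left out.

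The 5 strongest input peaks met by all 3 lists had folds of 5.19 to 6.87 in input and lay between genes. At chr5:13871300-13871639, which carries word 1, the folds were 6.38 in input, 5.41 in C29F4, 5.33 in ab9110 DMSO and 3.93 in ab9110 dTAG. At chr6:43743596-43743804 they were 5.19, 7.72, 8.62 and 4.14, and at chr15:72094967-72095155 they were 5.42, 7.26, 6.82 and 3.73. Single-copy by the median word were chr15:91983155-91983594, with 6.87, 4.88, 7.14 and 2.58, and chr4:16545022-16545571, with 5.46, 8.97, 7.86 and 3.71. At all 5 the lowest of the 4 folds was that of the ab9110 dTAG list. Folds of different lists come from libraries of different depth, and possibly from different kinds of background, and were not tested against each other.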

How the data were processed

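Peak lists of HA ChIP-seq and input chromatin from EHMT2-dTAG mESCs were analysed, grouped as labelled. The authors aligned reads to mm10 with STAR (version 2.7.10, from the submitters' processing notes), assigning a read with several possible locations to 1 of them, removed duplicates with Picard (2.26.0) and blacklisted regions, called peaks on paired-end fragments with MACS2 (2.2.6) and applied a q-value limit of 0.05. The deposited fold enrichment is a ratio of fragment pileup to local background. The deposited −log10 p-value and −log10 q-value refer to the summit. The deposited integer score was not used. The number of reads behind each list is unknown.

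Pileup and background at each summit were solved together from 2 deposited values, the Poisson p-value and the fold, which is (pileup + 1) / (background + 1). This succeeded for all 2050 input peaks, and tests on simulated data recovered 998 of 1000 pileups. Words of 36 bases were counted on both strands of GRCm38. A tandem repeat was a peak with 50% or more of its bases in stretches that repeat with a period of up to 100 bases at 90% identity over 50 bases. Genes came from GENCODE M21. Overlap meant at least 1 bp, and in tests on simulated data 0 of 2000 overlap calls differed from bedtools (2.31.1). Shares have exact binomial 95% intervals. With 1 library per condition no test between conditions was made. Named peaks were those of highest −log10 q within each class or overlap group. Members, lists and rules were chosen with earlier results of these data known.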

Additional observations from a re-analysis of the deposited data

How the results depend on the processing

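The 17 results were recomputed under the alternatives, which gave 75 values, of which 32 stayed within the interval of the main value, or within 1.5 times a count, and 43 did not. The share of intergenic summits, 53.4% against 54.0% of bases, turned from below to above that of bases under both stricter q limits. Restricting peaks to q below 0.01 left 564 of 2050 peaks and moved the X density ratio to 1.0, soft-masked bases to 60.6%, summits in long repeats to 30.9%, multicopy peaks to 73.2%, tandem repeats to 6.21%, summits near starts to 11.5%, intergenic summits to 58.6%, C29F4 overlap to 7.45%, overlap with no list to 82.8%, clustered peaks to 5.85% and median GC to 46.5%. With q below 0.001, 190 peaks remained, and the values were a median width of 198 bp, 62.1% soft-masked bases, 33.2% in long repeats, 90% multicopy, 11.6% tandem repeats, 0.526% mitochondrial-like (the same 1 peak), 9.47% near starts, 59.6% intergenic, 12.1% clustered and a median GC of 45.5%. The X density ratio was then 0.651, within the interval of the main value. Other definitions gave 55.7% soft-masked bases within 100 bases of the summit, 33.9% of summits in repeats of at least 1 kb, 28.3% multicopy with 100-base words, 28.7% of summits within 5 kb of a start, and 2.05% and 18.5% clustered within 1 kb and 100 kb. Overlap required over 50% of the input peak gave 10.3% for ab9110 DMSO, 2.93% for ab9110 dTAG, 0.78% for all 3 lists and 87.8% for none. Summits within 250 bp gave 9.56% for ab9110 DMSO, 2.93% for C29F4, 3.51% for ab9110 dTAG, 0.39% for all 3 and 88.2% for none. Limiting each ChIP list to its 2050 strongest peaks gave 2.98% (C29F4), 3.12% (ab9110 DMSO) and 1.41% (ab9110 dTAG), with 0.195% for all 3 and 95.3% for none. The cause of these shifts was not tested.

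No paired analysis was possible because the list comes from 1 library and no result comes from a test. Leaving out replicates was likewise not possible. The input list reflects 1 library of unknown total depth whose median peak held 9 fragments, so its weakest peaks rest on few molecules, and intervals cover counting error only. Reads with several possible locations were placed at 1 of them, so the position of a multicopy peak among near-identical copies is uncertain.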
